A study of Mus musculus with 145 samples.

Results

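Early-pluripotency 1 (EP1) was the name given by the authors to a cluster of single cells that arose in culture while mouse spermatogonial stem cells (SSCs) were becoming pluripotent, and that lay on a branch that did not reach pluripotency. The cells were taken by this name from the deposited annotation, which gave 119 of 4464 cells, 109 of them from batch B2 and 10 from batch B1. SSCs came from male pups a few days after birth, bred from a C57BL/6 mother that carried *Oct4*-EGFP or EGFP and a DBA/2 father. They were grown on mouse embryonic fibroblast feeders in StemPro-34 with EGF, bFGF, GDNF and ESGRO, and no chemical was added in any library used here. Every group carries this background, and the groups are clusters named from expression, not separate treatments. Cells of colonies with SSC or stem cell shape were moved 1 by 1 into barcoded lysis buffer, and 1 molecule was counted once through its unique molecular identifier (UMI). SSC1 to SSC4 of batch B2 (331 cells, hereafter SSC1-4) served as controls. RPG1 and RPG3, an early and a pluripotent cluster of the successful branch, and Early-pluripotency 2 (EP2) of the same batch were set beside them.

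SSCs are the self-renewing germ cells of the testis. GDNF from their surroundings signals through the receptors *Ret* and *Gfra1* and keeps them undifferentiated, whereas retinoic acid induces *Stra8* and sends them towards meiosis. When SSC cultures become pluripotent, they shut off germ cell genes and start the network around *Pou5f1*, *Nanog*, *Sox2* and *Esrrb*. *Eomes* and *T* encode T-box factors best known from the primitive streak, and both are also found in undifferentiated spermatogonia.

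EP1 cells were spread very unevenly over libraries. Day 18 replicate 4 held 88 EP1 cells among its 95 cells (92.6%) and 73.9% of all EP1 cells. Day 14 replicate 3 held 13 of 95 (13.7%), and 10 other libraries held 1 to 3 EP1 cells each. Only the first 2 had the 5 cells set as the minimum for a sum of counts, so that the replicate number of EP1 was 2. A cluster that comes mostly from 1 library cannot be told apart from that library, and for this reason levels are mostly given for both EP1 libraries side by side. These 2 libraries held 0 RPG3 cells, 0 EP2 cells and 1 RPG1 cell in all, so that differences of EP1 from those clusters cannot be told apart from differences between libraries. The barcodes are those of the plate and recur in every library, and the 13 EP1 barcodes of day 14 replicate 3 were all EP1 barcodes of day 18 replicate 4 too, but no cell name recurred.

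**Figure D1:**
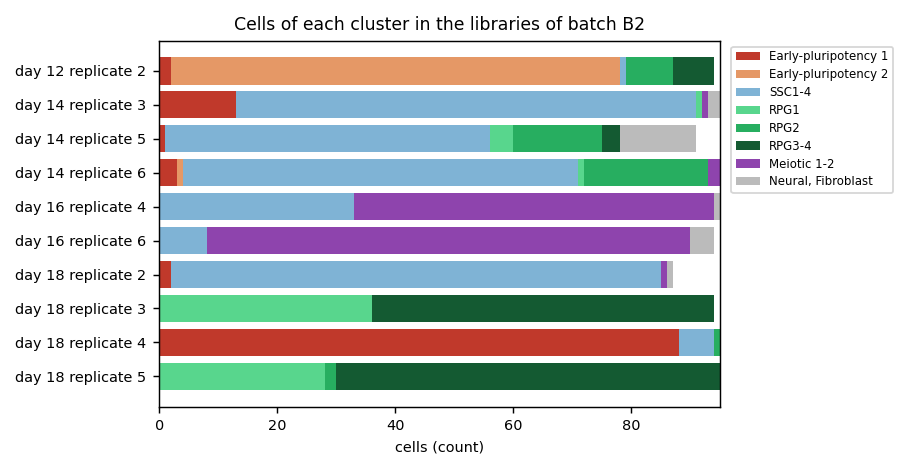
Number of cells (horizontal axis) of each cluster in the 10 libraries of batch B2, as annotated by the authors. EP1 filled 88 of 95 cells of day 18 replicate 4 and 13 of 95 of day 14 replicate 3, whereas the other libraries held at most 3 EP1 cells.

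EP1 cells of batch B2 had a median of 288282 UMIs, 9238 genes and 0.761% mitochondrial UMIs, and SSC1-4 cells had 260922 UMIs, 8046 genes and 0.861%. The EP1 sums held 5393193 UMIs in day 14 replicate 3 and 23577702 in day 18 replicate 4. The 7 SSC1-4 sums held 433094 to 22764919 UMIs. Of these, 2 stood apart in cell number: day 16 replicate 6 gave 8 SSC1-4 cells with a median of 11697.5 UMIs, and day 18 replicate 4 gave 6 with a median of 112247. Calls against SSC1-4 are therefore given both with and without these 2 libraries. Levels are CPM, the counts of a library sum scaled to a common total with TMM, and a log2 fold change is that of the edgeR fit named with it.

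The name of the cluster was only partly borne out by the 3 genes taken here as its markers. Of these, the study used *Esrrb* for the name, beside *Dppa2* and a low level of *Pou5f1*. *Eomes* (chr9:118478212-118486132, GRCm38) had 26.8 CPM in EP1 of day 14 replicate 3 and 37.0 in day 18 replicate 4. In SSC1-4 it ranged from 2.401 to 29.7 CPM with a median of 7.52. Only the 6 SSC1-4 cells of day 18 replicate 4 reached into the EP1 range. The log2 fold change was 1.57 ± 0.67 (SE, 2 against 7 libraries), which did not pass the test (edgeR quasi-likelihood, Benjamini-Hochberg adjusted p = 0.943), nor without the 2 small libraries (1.83 ± 0.46, adjusted p = 0.0919).

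*Sox2* (chr3:34650405-34652461) encodes a core pluripotency factor, and it split the 2 EP1 libraries. It had 15.5 CPM in day 14 replicate 3 and 109 CPM in day 18 replicate 4, against 16.4 to 93.6 (median 34.8) in SSC1-4. The lower EP1 library thus lay below every SSC1-4 library and the higher one above every one. Thinned to 100000 UMIs, 38.5% of 13 EP1 cells in the first library (95% exact binomial interval 13.9 to 68.4) and 92.9% of 85 in the second (85.3 to 97.4) had a *Sox2* UMI. The log2 fold change over SSC1-4 was 0.61 ± 0.64 (edgeR adjusted p = 0.977), 0.93 at 10 cells per library, and -1.44 without EP1 of day 18 replicate 4.

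*Esrrb* (chr12:86361117-86521628), a factor of naive pluripotency, was at 1.56 and 2.82 CPM in EP1. SSC1-4 ranged from 0 to 18.6 CPM with a median of 2.36, so EP1 lay within the SSC range (log2 fold change -1.03 ± 1.18, edgeR adjusted p = 0.979, and -0.45 at 10 cells per library). EP2 had 11.1 CPM (95% exact Poisson interval 9.86 to 12.5), and RPG3 had 117 ± 72.3 CPM (SD, n = 3).

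The other pluripotency markers that the study used were also near the level of SSCs. A low level of *Pou5f1* was part of the study's definition of the name and does not count against it. *Pou5f1* was at 3.65 and 2.53 CPM in EP1 and at a median of 2.401 in SSC1-4. *Nanog* was at 0.869 and 2.03 CPM against a median of 2.48, and *Dppa2*, an early pluripotency gene, at 15.98 and 13.1 against 9.86. All 3 lay within the range of SSC1-4 (edgeR adjusted p = 0.987, 0.943 and 0.987). The SSC markers were expressed at close to the SSC level: *Dazl*, an RNA-binding protein of germ cells, had 564 and 785 CPM against a median of 769 in SSC1-4, *Dmrt1* 240 and 308 against 299, and *Zbtb16* 59.4 and 87.3 against 88.8. For *Dazl* and *Zbtb16* the lower EP1 value, that of day 14 replicate 3, lay below every SSC1-4 library (lowest 668 and 70.6 CPM), and neither gene passed the test (edgeR adjusted p = 0.943 and 0.955). The wider list of germ cell identity lay lower. Of its 14 genes, 3 had a positive fold change, 4 lay wholly below SSC1-4 and 0 above (1.74% and 4.49% over all genes tested). They summed to 2790 and 3143 CPM in EP1 against 3214 to 4991 in SSC1-4. The cells are therefore called here by the name of their cluster, EP1, and not by a state of pluripotency.

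**Figure D2:**
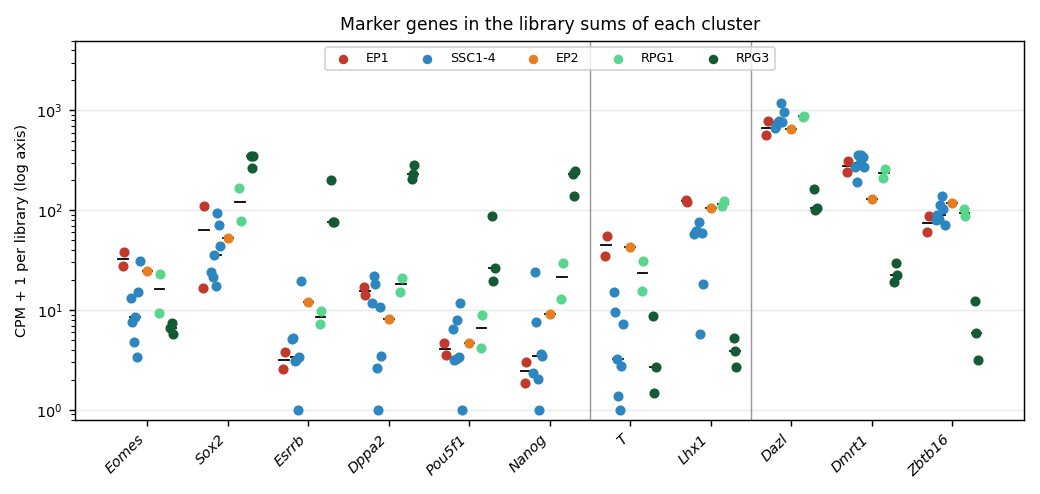
CPM + 1 per library (log axis) of 6 markers of the cluster or of pluripotency (left), *T* and *Lhx1* (middle) and 3 SSC markers (right). Each point is 1 library sum and each bar the median of the cluster. EP1 stood at the SSC1-4 level for *Esrrb*, *Pou5f1* and *Nanog*, far under RPG3, and above most SSC1-4 libraries for *Eomes*, *T* and *Lhx1*.

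Among single cells pooled over batch B2, *Eomes* and *T* were more frequent in EP1 than in SSC1-4, but 85 of the 106 EP1 cells came from day 18 replicate 4. After thinning to 100000 UMIs (3 EP1, 43 SSC1-4 and 11 RPG3 cells were shallower and left out), an *Eomes* UMI was present in 61.3% of 106 EP1 cells (95% interval 51.4 to 70.6), 25.4% of 288 SSC1-4 cells (20.4 to 30.8) and 16.8% of 119 RPG3 cells (10.6 to 24.8). *T* was present in 74.5% of EP1 cells (65.1 to 82.5), 13.5% of SSC1-4 cells (9.81 to 18.04) and 10.9% of RPG3 cells. Without thinning, 78.0% of EP1 and 29.6% of SSC1-4 cells had an *Eomes* UMI, and 91.7% and 19.03% a *T* UMI. RPG3 had 5.62 CPM of *Eomes* and 3.29 of *T* on average and was taken here as a low level of both genes. The study, in contrast, listed *Eomes* among epiblast markers found only in RPG3 and RPG4. The *T* share of SSC1-4 was near that of RPG3, and without thinning 32.3% of RPG3 cells had an *Eomes* UMI and 23.8% a *T* UMI. Median depth was 288282 UMIs in EP1 and 245864.5 in RPG3. Within day 14 replicate 3, the shares lay closer together: *Eomes* was present in 46.2% of 13 EP1 cells (19.2 to 74.9) and 38.9% of 72 SSC1-4 cells (27.6 to 51.1), and *T* in 53.8% (25.1 to 80.8) and 29.2% (19.1 to 41.1), with intervals that overlapped for both genes. In day 18 replicate 4, 65.9% and 80.0% of 85 EP1 cells had them. The intervals cover counting error only, and cells of 1 library are not replicates.

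Against SSC1-4, no gene passed the test in the 2 against 7 libraries: edgeR called 0 of 15722 genes (0%) at an adjusted p below 0.05 and a natural-log fold of at least 0.5, the lowest adjusted p being 0.626. At an unadjusted p below 0.05 there were 778 genes (4.95%), 304 higher (1.93%) and 474 lower (3.01%), and DESeq2 called 49 (0.312%). The EP1 libraries lay wholly above SSC1-4 for 706 genes (4.49%) and wholly below for 273 (1.74%). When libraries needed at least 10 cells of the class, which dropped day 16 replicate 6 and day 18 replicate 4 from SSC1-4, 68 of 16034 genes (0.424%) were called, 25 higher (0.156%) and 43 lower (0.268%). With the 2 libraries kept, in a fit that shares the other libraries, all 68 had the same sign, 61 of them at an unadjusted p below 0.05. With the library as a block, in the 2 libraries where both classes occur, 40 genes were called, of which 11 were among these 68. DESeq2 on all libraries shared 22 of its 49 with them. The genes described next as called are those of the fit of 2 against 5 libraries, and 0 of them were called by edgeR in that of 2 against 7. The clusters were drawn on these same transcriptomes, so that the fits describe EP1 and are no independent test of it.

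Several genes of differentiating spermatogonia were called lower in EP1. *Sohlh1* (chr2:25842995-25847248), a transcription factor of early differentiation, had 53.2 CPM in day 14 replicate 3 and 53.1 in day 18 replicate 4, and 95.4 to 362 CPM (median 205) in SSC1-4. Both EP1 libraries lay below all 7 SSC1-4 libraries. The fitted log2 fold change was -2.18 ± 0.24 in the libraries with 10 cells (edgeR adjusted p = 0.000802) and -1.97 ± 0.39 in all libraries (adjusted p = 0.626). Within day 14 replicate 3, which holds both classes, *Sohlh1* had 53.2 CPM in EP1 and 190 in SSC1-4.

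*Stra8* (chr6:34920163-34939344), the retinoic acid target that opens meiosis, followed the same pattern with 1 exception. It was at 36.7 and 34.7 CPM in EP1 and at 23.5 to 243 CPM (median 161) in SSC1-4, and only the 6 SSC1-4 cells of day 18 replicate 4 were below EP1. The fitted value was -2.28 ± 0.26 (edgeR adjusted p = 0.000802) without the 2 small libraries and -1.98 ± 0.57 (adjusted p = 0.943) with them. Within day 14 replicate 3, *Stra8* had 36.7 CPM in EP1 and 119 in SSC1-4, but the shares of cells were level. Thinned to 100000 UMIs, 84.6% of 13 EP1 and 84.7% of 72 SSC1-4 cells there had a *Stra8* UMI. Pooled over batch B2 the shares were 63.2% and 86.8%. *Upp1*, uridine phosphorylase, was at 13.6 and 8.57 CPM against 11.2 to 149.5 in SSC1-4 (-3.24 ± 0.44, edgeR adjusted p = 0.00376, at 10 cells).

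Of the 14 genes listed for spermatogonial differentiation, 13 were tested. With all libraries 0 were called, 5 were lower and 0 higher at an unadjusted p below 0.05 (3.01% and 1.93% over all genes tested), and the median log2 fold change was -0.62, beside -0.07 over all genes tested. The median was -0.35 within day 14 replicate 3 but 0.54 within day 18 replicate 4, where 8 of 13 genes were higher in EP1 than in 6 SSC1-4 cells and the median over all genes tested was 0.24. At 10 cells 3 of 14 were called lower, *Sohlh1*, *Stra8* and *Upp1*, beside 0.268% of all genes in that fit. *Kit*, the receptor that marks differentiating spermatogonia, was at 15.3 and 16.03 CPM in EP1, within the SSC1-4 range of 3.72 to 24.0. *Neurog3* had 0 UMIs in EP1 and 70 in SSC1-4 (0.778 CPM pooled), at least 7.76-fold lower with 3 UMIs over both EP1 libraries as the limit. This limit rests on the depth of day 18 replicate 4, since 3 UMIs correspond to 0.521 CPM in EP1 of day 14 replicate 3 alone. *Sox3*, which is also a gene of the epiblast list, was at 2.95 and 8.70 CPM against a median of 20.4 (log2 fold change -2.30 ± 0.91, edgeR adjusted p = 0.943). *Dppa3*, a maternal and germ cell gene of the primordial germ cell list, was at 54.4 and 50.7 CPM against 19.2 to 208 and was called lower at 10 cells (-1.46 ± 0.26, edgeR adjusted p = 0.0215).

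Meiosis genes had mostly negative fold changes. Of 17 tested, 14 had a negative log2 fold change, 6 of them at an unadjusted p below 0.05, beside 3.01% over all genes tested (0 called, median -0.52). At 10 cells the median was -0.34 and 1 of 17, *Stra8*, was called lower. The median was -0.44 within day 14 replicate 3 and 0.005 within day 18 replicate 4. *Spo11*, which makes the meiotic double-strand breaks, was at 1.22 and 0.994 CPM in EP1 and at 2.401 to 11.98 CPM in SSC1-4, and *Hormad1*, of the chromosome axis, at 46.9 and 60.1 against 88.7 to 136. For both genes EP1 lay below all 7 libraries. *Dpep3* was at 0 and 0.414 CPM (10 UMIs in all) against 0 to 79.2, where the 2 highest SSC1-4 values, 79.2 and 45.6 CPM, were those of the 2 day 16 libraries, which also held 81 and 11 Meiotic 1 cells and 1 and 50 Meiotic 2 cells. Whether those cells had a part in the SSC1-4 level was not tested. *Sycp1*, of the synaptonemal complex, was at 379 and 348 CPM against 454 to 715 (log2 fold change -0.52 ± 0.19, edgeR adjusted p = 0.943).

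Genes of SSC self-renewal and of the GDNF response had mostly positive fold changes. Of 22 genes, 21 were tested, 17 had a positive log2 fold change and 6 lay wholly above SSC1-4, with a median of 0.86. With all libraries 0 were called and 6 were higher at an unadjusted p below 0.05. Over all genes tested, 7055 of 15722 had a positive fold change, 4.49% lay wholly above and 1.93% were higher at that p. *Lhx1*, a GDNF-responsive transcription factor, was the 1 member called at 10 cells, with 127 and 119 CPM in EP1 against 4.80 to 75.7 (median 57.6) in SSC1-4 (0.96 ± 0.19, edgeR adjusted p = 0.0379). *Ret*, the signalling receptor of GDNF, had 177 and 136 CPM against 28.8 to 113, and *Etv5*, a target of GDNF and FGF signalling, 113 and 109 against 12.8 to 70.7. The co-receptor *Gfra1* had 35.6 and 31.4 CPM, inside the SSC1-4 range of 4.59 to 39.7.

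*T* (chr17:8434423-8442496) had the largest positive fold change of this list. It was at 34.1 CPM in day 14 replicate 3 and 53.7 in day 18 replicate 4, against 0 to 14.1 (median 2.24) in SSC1-4. The ranges did not overlap, and the log2 fold change was 3.1 ± 0.84 (edgeR adjusted p = 0.943) with all libraries and 2.99 ± 0.75 (adjusted p = 0.0929) at 10 cells. *Nefm*, a neurofilament gene on the list, had 376 and 288 CPM against 17.8 to 211. Not all members went this way: *Bcl6b* was at 21.02 and 36.8 CPM against a median of 25.2, and *Cxcl12* at 0 and 0.497 against a median of 1.25. *T*, *Eomes* and *Lhx1* are also on the mesendoderm list, in which 12 of 14 genes were tested, 6 had a positive fold change and the median was -0.03. Of the 12, 3 lay wholly above SSC1-4 and 0 below (4.49% and 1.74% over all genes tested). At an unadjusted p below 0.05, 3 were higher and 1 lower (1.93% and 3.01%), and at 10 cells 1, *Lhx1*, was called. The list summed to 263 and 310 CPM in EP1 against 40.8 to 181 in SSC1-4. On that list *Gata4*, *Gata6* and *Mesp1* were at 0 to 1.41 CPM in EP1.

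Feedback inhibitors of the ERK pathway are induced by ERK and damp it, the Sprouty and Spred proteins at Ras and Raf and the dual-specificity phosphatases at ERK itself. *Spred1* (chr2:117121374-117182279) had 79.6 and 101 CPM in EP1 and 16.2 to 120 (median 22.3) in SSC1-4. The 5 SSC1-4 libraries with 10 cells lay at 16.2 to 29.4 CPM and the 2 small ones at 89.2 and 120, and the log2 fold change was 1.15 ± 0.62 (edgeR adjusted p = 0.943) with them and 2.08 ± 0.27 (adjusted p = 0.00239) without. *Dusp9* (chrX:73639419-73643514), a phosphatase of ERK that is not on the list of ERK feedback genes, was at 166 and 131 CPM against 4.80 to 72.1 (1.6 ± 0.29 at 10 cells, adjusted p = 0.0222). *Spry1* had 36.3 and 48.3 CPM against 10.95 to 24.01 and missed the threshold (1.49 ± 0.32, adjusted p = 0.0541).

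Over the whole list of ERK feedback and immediate early genes, 14 of 19 had a positive fold change, 4 at an unadjusted p below 0.05 (0 called, median 0.46), beside 7055 of 15722 and 1.93% over all genes tested. At 10 cells 1 of 18, *Spred1*, was called. *Myc*, a growth regulator among them, had 12.5 and 20.4 CPM against 0.382 to 6.27 (2.33 ± 0.80, adjusted p = 0.943). The immediate early genes *Fos*, *Egr1* and *Junb* had negative fold changes that did not pass the test. *Fos* was at 14.6 and 43.3 CPM against 27.3 to 411, *Egr1* at 39.3 and 50.9 against 40.8 to 310, and *Junb* at 44.0 and 43.2 against 23.5 to 298. The highest value of these 3 genes in SSC1-4 was that of day 16 replicate 6 each time.

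Mitotic genes had small positive fold changes. In the G2 and mitosis list 15 of 16 genes had a positive log2 fold change, 9 lay above all SSC1-4 libraries and 7 had an unadjusted p below 0.05 (0 called, median 0.47), beside 4.49% above and 1.93% higher at that p over all genes tested. *Mki67*, the common marker of cycling cells, had 178 and 143 CPM against 79.0 to 103, and was called at 10 cells (0.83 ± 0.17, edgeR adjusted p = 0.048). *Plk1*, a kinase of mitotic entry, had 194 and 188 CPM against 40.8 to 169, but its fold change was -0.02 against SSC2 alone. In contrast, the median of the 16 S phase genes was 0.002, with 0 genes under an unadjusted p of 0.05.

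Many called genes belonged to none of the lists. The 12 with the largest positive fold change at 10 cells, by the rule given under the processing, began with *Cdh3* (chr8:106510891-106557297), which encodes P-cadherin. It was at 31.4 and 28.9 CPM in EP1 and at 0 to 5.32 (median 2.97) in SSC1-4 (3.1 ± 0.56, edgeR adjusted p = 0.0217). Both libraries were far above the highest SSC1-4 library. *Nxph4*, a secreted neurexin ligand, had 63.9 and 69.8 CPM against 0 to 20.9 (2.71 ± 0.42, adjusted p = 0.00921), and *Man2a1*, a Golgi mannosidase, 25.2 and 22.7 against 2.48 to 5.04 (2.64 ± 0.46, adjusted p = 0.0215). *Mapk12*, *Nid1* and *Kif21a* followed with log2 fold changes of 2.49, 2.18 and 1.89, then *Med14*, *Cxcl14*, *Tjp1* and *Emb* with 1.73, 1.63, 1.61 and 1.58. *Nid1* and *Tjp1* encode proteins of the basement membrane and of tight junctions. The list of epithelial junction genes as a whole had a median of 0.30, with 2 of 12 genes higher at an unadjusted p below 0.05 (1.93% over all genes tested) and 0 called.

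The 12 genes at the lower end of the called ones were all at 13.6 CPM or less in EP1. *Clec10a*, a lectin of macrophages, gave 3 UMIs in EP1 and 956 in the 5 SSC1-4 libraries with 10 cells, a ratio of 107 (95% exact interval 36.6 to 522, counting error only), but the SSC1-4 UMIs came almost wholly from libraries other than the 2 EP1 ones. In day 14 replicate 3 and day 18 replicate 4, SSC1-4 had 0.783 and 0 CPM of *Clec10a* beside 0 and 0.124 in EP1. The 8 EP1 cells of the other B2 libraries had 14.6 CPM, and those of batch B1 40.2 against 8.16 in their SSC1-4. *Eppin*, *Gm6890*, *Il1r2*, *Enpep* and *Wfdc15a* were at 0.207 to 2.61 CPM in EP1 and had fitted log2 fold changes of -5.15, -4.94, -4.50, -3.85 and -3.84. The 8 other B2 cells of EP1 went the opposite way for *Wfdc15a*, with 40.6 CPM against a mean of 12.6 in SSC1-4, and for *Il1r2*, with 18.5 against 9.49, and both fold changes were positive at a minimum of 1 cell. In B1, *Gm6890* was at 16.01 CPM in EP1 and 16.95 in SSC1-4, and *Wfdc15a* at 11.3 and 12.2. *Erg* (chr16:95359169-95586593), a transcription factor of the ETS family, was at 5.21 and 7.42 CPM against 38.8 to 69.8 in the SSC1-4 libraries with 10 cells (-3.05 ± 0.35, edgeR adjusted p = 0.000861). *Ighm* (-3.20), *AA467197* (-3.18), *Cartpt* (-3.34) and *Pla2g16* (-3.26) completed the group.

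**Figure D3:**
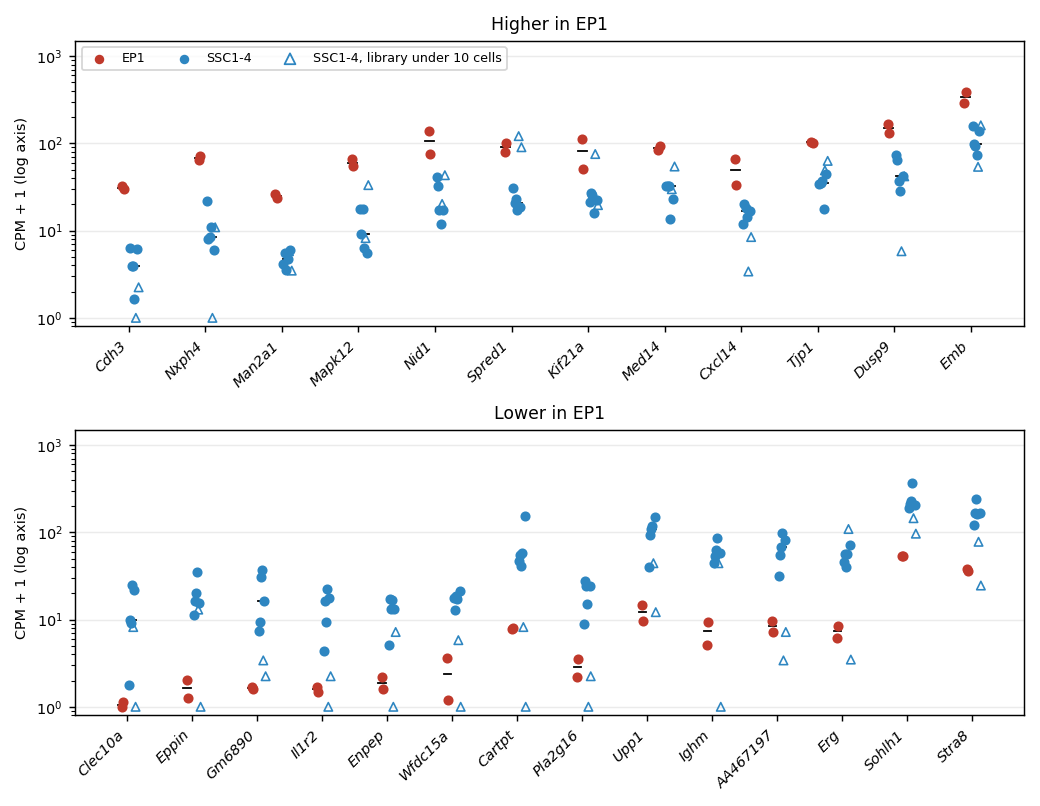
CPM + 1 per library (log axis) of 12 called genes on each side, chosen by size of fold, with *Sohlh1* and *Stra8* added; filled points are libraries with at least 10 cells, triangles the 2 smaller SSC1-4 libraries, bars the medians of the filled points. The EP1 points lie outside the filled SSC1-4 points for every gene shown, which the rule of choice required for the 12 on each side, and 1 or both triangles fall among or beyond the EP1 points for *Spred1*, *Ighm*, *Cartpt* and others.

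The SSC1-4 cells of day 18 replicate 4 resembled EP1 for part of these genes. They had 89.2 CPM of *Spred1* and 29.7 of *Eomes*, and 2.48 of *Erg*, 23.5 of *Stra8*, 0 of *Ighm* and 0 of *Cartpt* (3 UMIs correspond to 3.72 CPM in this sum of 6 cells). Within day 18 replicate 4, whose SSC1-4 cells the fit did not use, EP1 was lower for 18 of the 43 genes called lower and higher for 23 of the 25 called higher. Over all genes tested, 36.3% were lower and 61.1% higher in EP1 there. The EP1 cells of that library were in the fit. The sign within day 14 replicate 3 was fixed by the choice of genes, since both of its sums were in the fit and lay apart for all 68.

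EP1 cells outside the 2 large libraries were few, but could be set beside SSC1-4. The 8 EP1 cells of the other 4 libraries of batch B2, pooled, had the sign of the fit for 25 of the 25 higher and 36 of the 43 lower genes, beside 45% of all genes tested that were higher and 55% that were lower. They were set against the same SSC1-4 libraries that entered the fit, so that the sign was in part fixed by the choice of genes. The 10 EP1 cells of 6 libraries of batch B1 (days 10, 14 and 20), set against the 467 SSC1-4 cells of the same libraries, had it for 20 and 39. Over all genes tested, 6624 of 15722 were higher and 9079 lower in these B1 cells. In B1, *T* had 91.8 CPM in EP1 and 16.8 in SSC1-4, *Eomes* 29.7 and 8.21, *Sohlh1* 64.4 and 165, and *Stra8* 48.0 and 115. *Cdh3*, in contrast, was at 5.86 and 6.08 CPM there, and *Plk1* at 46.9 and 92.3. The authors clustered these cells together with those of batch B2, so they too are described and not tested.

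The 2 EP1 libraries differed from each other about as much as SSC1-4 libraries do. Among 9056 genes with a mean of 10 CPM, 16.6% differed by a natural-log fold of 0.5 or more between them, and over the 10 pairs of the 5 SSC1-4 libraries with 10 cells this share was 9.89 to 19.9%. Chosen after their values were seen, *Hoxa7* was at 20.7 CPM in day 14 replicate 3 and 0.0414 in day 18 replicate 4, and *Myom2*, a muscle structural gene, at 0 and 41.7. The SSC1-4 cells of the same 2 libraries had 5.98 and 0 CPM of *Hoxa7* and 0 and 7.43 of *Myom2*. The 3 UMIs that set the limit in the smaller of these SSC1-4 sums correspond to 3.72 CPM. Other genes went the opposite way in the SSC1-4 cells, such as *Fam111a*, at 1.04 and 23.2 CPM in EP1 but 18.01 and 0 in SSC1-4.

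Of the 29 lists of genes, 9 had a median above 0 and 20 below 0 against SSC1-4, and 0 members were called with all libraries. Beyond those described, BMP and Id genes had a median of 0.32, formative and primed epiblast 0.08, DNA methylation 0.03, imprinted genes 0.006, early-pluripotency markers -0.005, cholesterol synthesis -0.01 and heat shock -0.05. Lower medians were those of Wnt targets (-0.11), p53 targets (-0.12), metallothionein and redox (-0.15), fibroblast and feeder (-0.19), Nodal and TGF-beta (-0.20), glycolysis (-0.28), germ cell identity (-0.29), unfolded protein response (-0.32), testis somatic cells (-0.35), core and naive pluripotency (-0.42), hypoxia response (-0.57), primordial germ cells (-0.60), the *Rhox* cluster (-0.60) and neural genes (-0.67). Within day 18 replicate 4, where 6 cells stood for SSC1-4, the sign was the opposite for several of these, with medians of 1.44 for primordial germ cells, 1.06 for Nodal and TGF-beta, 0.73 for neural genes and 0.42 for core and naive pluripotency. As to other cell types, the 16 fibroblast and feeder genes summed to 866 and 1047 CPM in EP1 and 535 to 1089 in SSC1-4, and the 12 testis somatic genes to 33.2 and 31.02 against 8.67 to 37.2. *Dcn* and *Lum*, defining genes of fibroblasts, were at 0 in both EP1 and all 7 SSC1-4 libraries, *Fn1* (82.5 and 70.3 CPM against 9.60 to 65.7) and *S100a6* (203 and 216 against 77.7 to 182) lay above all 7, and *Postn* was at 4.00 and 1.08 CPM against 0 to 5.05. The 15 neural genes summed to 123 and 174 CPM against 79.4 to 177, with *Neurog2* and *Dcx* at 0 in both classes. *Zic1* (59.2 and 52.6 CPM against 16.1 to 36.01) and *Sox11* (28.3 and 16.6 against 0 to 13.7) lay above all SSC1-4 libraries, both at an unadjusted p below 0.05 (edgeR adjusted p = 0.943). The part of such RNA in the other results was not tested.

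**Figure D4:**
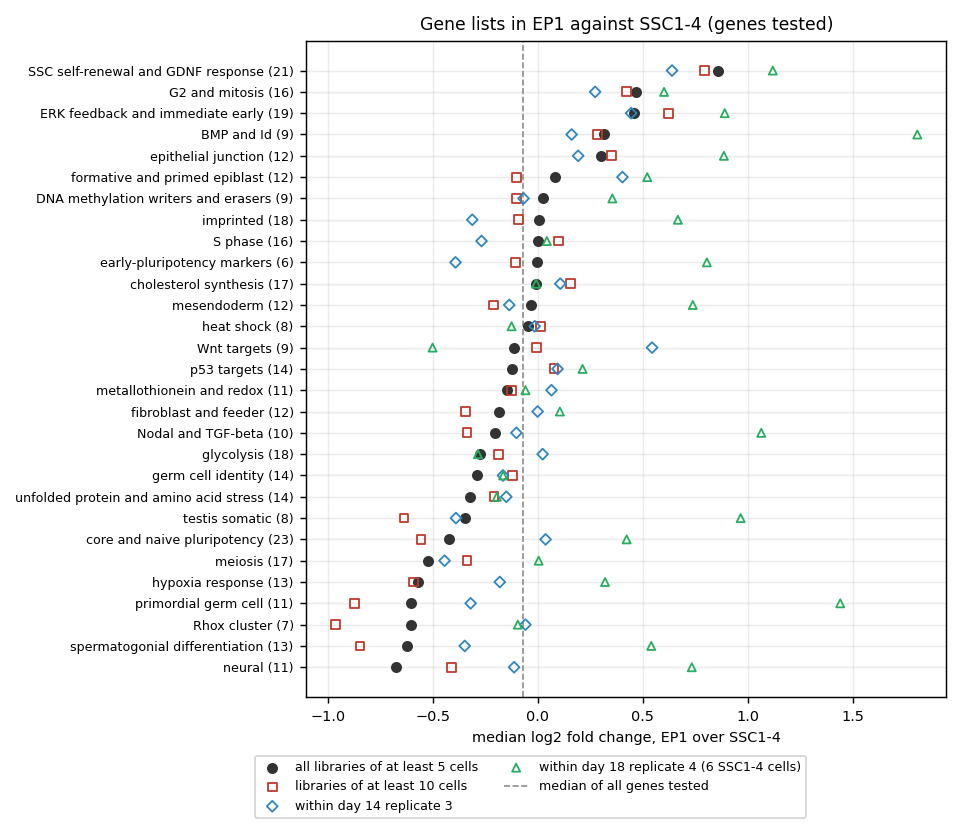
Median log2 fold change of EP1 over SSC1-4 (horizontal axis) for 29 gene lists, with the number of genes tested; filled circles use all libraries, squares those with at least 10 cells, diamonds the cells of day 14 replicate 3 alone and triangles those of day 18 replicate 4 alone, and the dashed line is the median of all genes tested with all libraries (0.24 for the triangles). SSC self-renewal and GDNF response (0.86), G2 and mitosis (0.47) and ERK feedback (0.46) lie highest by the circles, and the triangles of many lists, such as spermatogonial differentiation (0.54) and primordial germ cells (1.44), lie on the other side of 0.

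Compared with RPG3, EP1 had far less of the pluripotency genes and more of the germ cell genes. In 2 against 3 libraries edgeR called 2395 of 14390 genes (16.6%), 960 higher (6.67%) and 1435 lower (9.97%) in EP1. The count was 885 and 1051 without EP1 of day 14 replicate 3 and of day 18 replicate 4, and 3946 without the 7 RPG3 cells of day 12 replicate 2. Of the 24 core and naive pluripotency genes, 22 were called lower, with a median log2 fold change of -3.99, and 0 higher. *Nanog* was lower by -6.99 ± 0.51 (edgeR adjusted p = 2e-06), *Esrrb* by -5.66 ± 0.65 (adjusted p = 8.32e-05) and *Pou5f1* by -3.82 ± 0.85 (adjusted p = 0.00866). The 2 not called lower were *Tcl1*, with 298 and 239 CPM in EP1 and 194 in RPG3, and *Lin28a*, with 46.0 and 32.6 against 80.3.

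Of the 14 germ cell identity genes, 11 were called higher in EP1 than in RPG3 and 1, *Sall4*, lower, beside 6.67% higher and 9.97% lower over all genes tested. *Dazl* was higher by 2.48 ± 0.26, *Dmrt1* by 3.55 ± 0.32 and *Zbtb16* by 3.74 ± 0.69 (edgeR adjusted p = 3.46e-05, 1.14e-05 and 0.00265). Glycolytic enzymes were lower in EP1, 11 of 18 called and 0 higher (median -1.22), among them *Ldha* and *Pfkp*. The list of DNA methylation genes had 5 of 9 called lower, *Dnmt3a*, *Dnmt3b*, *Dnmt3l*, *Tet1* and *Tet2*. *Etv5* and *Myc*, whose EP1 values lay above all SSC1-4 libraries, were lower in EP1 than in RPG3 (-1.29 ± 0.24 and -2.37 ± 0.49 on the log2 scale, edgeR adjusted p = 0.00322 and 0.00549).

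By the rule for named genes, the genes furthest below RPG3 were *Aoah*, *Laptm5*, *Fgf15*, *Gm15698* and *Lgals9*, which had 0 UMIs in EP1. They were at least 694-fold, 590-fold, 587-fold, 249-fold and 151-fold lower than the pooled RPG3 level, with 3 UMIs over both EP1 libraries as the limit. The RPG3 libraries themselves differed: *Lgals9* was at 78.7 CPM in day 12 replicate 2, 21.9 in day 18 replicate 3 and 2.92 in day 18 replicate 5, and its limit was 276-fold without day 18 replicate 5 and 97.04-fold without day 18 replicate 3, and that of *Fgf15* was 382.5-fold without the latter. For the other 3 genes no RPG3 library moved the limit by more than 1.5 times. On the EP1 side the limits rest on the depth of day 18 replicate 4. There 3 UMIs correspond to 0.124 CPM, against 0.521 in day 14 replicate 3, whose limits alone would be lower. *Platr10*, a noncoding RNA of pluripotent cells, had 2 UMIs in EP1 and 7961 in RPG3, a ratio of 4189 (95% exact interval 1159 to 34590). At the other end, *Lhx5*, *Tnfsf4* and *Tshz2* had 0 UMIs in RPG3, which puts pooled EP1 at least 68.7-fold, 88.1-fold and 60.5-fold higher. These limits differed between the EP1 libraries. *Lhx5* was at 22.1 CPM in day 14 replicate 3 and 3.73 in day 18 replicate 4, with limits of 209-fold and 35.3-fold from each alone. *Tnfsf4* was at 17.02 and 7.46 CPM, with 161-fold and 70.6-fold, and *Tshz2* at 18.9 and 3.40, with 179-fold and 32.2-fold. The 8 other B2 cells had 15.4 CPM of *Tnfsf4* and 0 UMIs of *Tshz2*, and the EP1 cells of B1 had 0 UMIs of both, where 3 UMIs correspond to 1.18 and 1.17 CPM. *Krt24* and *Lhx8* had 1 RPG3 UMI each, with ratios of 281 (50.1 to 11150) and 237 (42.1 to 9384), and *Spaca1* had 2, with a ratio of 123 (33.7 to 1022). All 3 were higher in day 14 replicate 3 (28.3, 13.4 and 17.4 CPM) than in day 18 replicate 4 (5.51, 7.12 and 6.59 CPM).

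Among the clusters of batch B2, RPG1 had the highest rank correlation with pooled EP1, an order that rested on day 18 replicate 4. The Spearman correlation of summed expression across genes was 0.969 with RPG1, 0.963 with SSC2, 0.958 with SSC3, 0.954 with SSC1 and 0.949 with EP2, and 0.869 with RPG3. These values are across genes, which are not replicates, and rest on sums of 30 to 166 cells. With EP1 of day 14 replicate 3 alone, SSC2 (0.939), RPG1 (0.938) and SSC3 (0.937) were nearly level. The 2 EP1 libraries correlated at 0.947. EP1 of day 18 replicate 4 was above this value with RPG1 (0.967), SSC2 (0.959), SSC3 (0.953) and SSC1 (0.951). EP1 of day 14 replicate 3, the smaller sum, was not above it with any of these clusters. The comparison with RPG1 was added because of its rank, after the data had been seen.

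In 2 against 2 libraries edgeR called 28 of 13113 genes between EP1 and RPG1 (0.214%), 5 higher (0.0381%) and 23 lower (0.175%). Leaving out 1 library in turn gave 37 to 138 genes, and DESeq2 67. Of the genes lower in EP1, *Tdgf1*, a Nodal co-receptor, had 2.26 and 1.41 CPM in EP1 and 110 and 140 in RPG1 (-6.20 ± 0.42, adjusted p = 4.49e-08). *Stmn2* (-5.12 ± 0.59, adjusted p = 7.73e-05), *Gtsf1l* (-5.76 ± 0.89, adjusted p = 0.00258), *Nr0b1* (-5.12 ± 0.98, adjusted p = 0.0261) and *Urah* (-4.89 ± 0.98, adjusted p = 0.0381) followed, and *Platr10* had 2 UMIs in EP1 and 350 in RPG1, a ratio of 360.5 (95% exact interval 99.1 to 2988). *Upp1*, at 13.6 and 8.57 CPM in EP1, had 170 and 163 in RPG1 (-3.95 ± 0.33, adjusted p = 7.53e-07).

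Of the pluripotency list, 5 of 23 genes tested were called lower in EP1 than in RPG1 and 0 higher, beside 0.175% lower over all genes tested, and the median was -0.85 beside -0.01. These were *Dppa5a*, *Utf1*, *L1td1*, *Tdgf1* and *Nr0b1*. The RPG1 sums came from the 2 libraries that also held 58 and 65 RPG3 cells. In them *Tdgf1* stood in RPG1 at 13.3 and 15.2% of its RPG3 level in the same library, *Platr10* at 8.40 and 8.82%, *Gtsf1l* at 7.15 and 7.56%, *Nr0b1* at 7.89 and 6.90%, *L1td1* at 8.35 and 8.16%, and *Urah* at 8.40 and 6.59%. For *Stmn2* the share was 10.2 and 12.4%, for *Utf1* 14.8 and 16.6% and for *Upp1* 21.7 and 23.3%. Whether RNA of RPG3 cells had a part in these RPG1 levels was not tested.

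Genes higher in EP1 than in RPG1 were 5. *Lhx5* and *Hoxaas3* had 0 UMIs in RPG1, which puts pooled EP1 at least 35.1-fold and 40.6-fold higher, with 3 UMIs over both RPG1 libraries as the limit. *Hoxaas3* was at 13.7 and 7.12 CPM in EP1. From day 14 replicate 3 and day 18 replicate 4 alone, the limits were 107-fold and 18.04-fold for *Lhx5* and 66.4-fold and 34.5-fold for *Hoxaas3*. *Flt1*, a receptor of VEGF, was at 103 and 17.98 CPM in EP1 and 5.67 and 9.53 in RPG1 (2.98 ± 0.61, edgeR adjusted p = 0.0459), *Cd7* at 66.0 and 32.4 against 6.46 and 11.7 (2.43 ± 0.50, adjusted p = 0.0459), and *Tmed9*, of the secretory pathway, at 150 and 208 against 71.7 and 63.1 (1.41 ± 0.26, adjusted p = 0.0171). EP1 cells elsewhere did not share all of these differences. *Tmed9* was at 61.1 CPM in the 8 other B2 cells and 64.0 in those of B1, near the RPG1 level, and *Hoxaas3* at 0 and 1.17, whereas *Cd7* was at 76.4 and 26.2 and *Flt1* at 90.6 and 19.5.

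Some of the genes called between EP1 and SSC1-4 were at similar levels in RPG1. *Spred1* was at 89.4 CPM in RPG1 on average and 90.2 in EP1, *Dusp9* at 202 and 149, *Tjp1* at 117 and 101, *Lhx1* at 116 and 123, and *Sohlh1* at 62.5 and 53.1. *Stra8* was at 9.49 and 12.4 CPM in the RPG1 libraries, below both EP1 libraries, but was not called (1.70 ± 0.49, edgeR adjusted p = 0.337). With RPG1 as reference the medians were 0.08 for SSC self-renewal and GDNF response, -0.13 for ERK feedback, -0.17 for G2 and mitosis and -0.18 for germ cell identity, beside -0.01 over all genes tested, with 0 members called in these 4 lists.

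**Figure D5:**
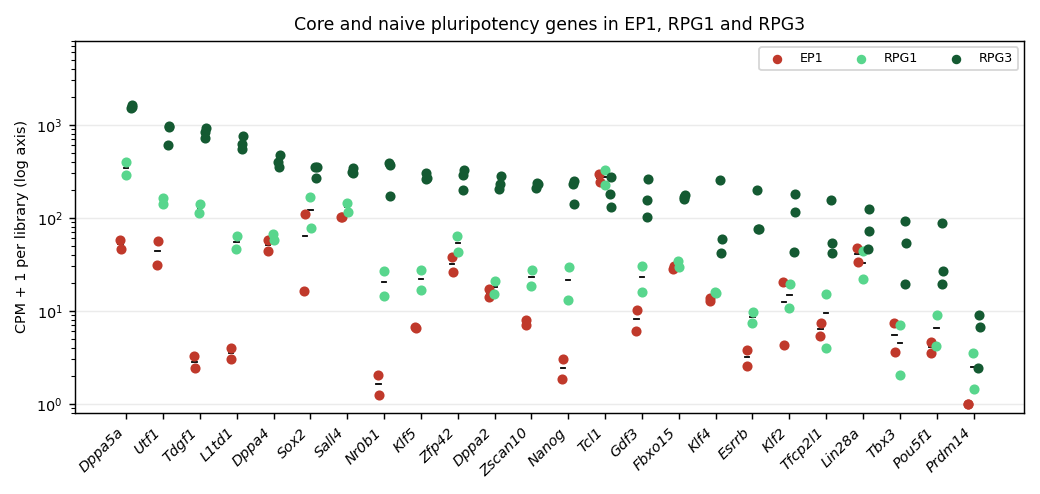
CPM + 1 per library (log axis) of the 24 core and naive pluripotency genes, ordered by their mean in RPG3, in the 2 EP1, 2 RPG1 and 3 RPG3 libraries; bars are medians. Both EP1 libraries lie under all RPG3 libraries for every gene but *Tcl1* and *Lin28a*, and under both RPG1 libraries for 13 of the 23 genes tested against RPG1 (18.4% over all genes tested), among them the 5 called and *Nanog* and *Zscan10*, which were not called.

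EP2, which shares its name with EP1, came almost wholly from 1 library, day 12 replicate 2 with 76 cells, and its values are set beside EP1 without a test. Of 9859 genes with a mean of 10 CPM in either class, 1199 (12.2%) were higher and 1721 (17.5%) lower in both EP1 libraries, with a natural-log fold of the means of at least 0.5. EP2 and EP1 cells occurred together in 2 libraries, with 2 and 3 EP1 and 76 and 1 EP2 cells, and there edgeR called 0 genes with the library as a block and 2 without it (103 and 199 genes at an unadjusted p below 0.05). EP2 had 23.8 CPM of *Eomes*, 41.6 of *T*, 124.2 of *Spred1* and 67.95 of *Sohlh1*, close to EP1, but 6.92 of *Stra8* and 8.08 of *Nanog*. Of the 16 genes of the G2 and mitosis list, 16 were lower in EP2 than the mean of EP1, such as *Plk1* at 44.0 CPM and *Mki67* at 106. The share over all genes by this measure was not counted. With the block 0 of the 16 were called, at a median log2 fold change of 1.99 for EP1 over EP2. That fit rests on 2 and 3 EP1 cells and called 0 of 8361 genes, so it cannot decide whether the list differs.

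By the same rule for named genes, 6 were taken in each direction. *Krt19*, a keratin of simple epithelia, was at 58.2 and 65.3 CPM in EP1 and 2.61 in EP2, and *Gm20442* at 63.8 and 27.2 against 0.965. The 8 EP1 cells of the other libraries of batch B2 did not share this difference, with 1.58 CPM of *Krt19* (95% exact Poisson interval 0.429 to 4.03) and 1.18 of *Gm20442* (0.244 to 3.45), whereas the EP1 cells of B1 had 63.6 and 62.1. *Lhx5* and *Hoxa7* had 0 UMIs in EP2, which puts pooled EP1 at least 60.2-fold and 33.3-fold higher, but *Hoxa7* only through day 14 replicate 3, and for *Lhx5* the limit was 183-fold with day 14 replicate 3 and 30.9-fold with day 18 replicate 4 alone. *Gm26534* and *Gm6297* had 2 EP2 UMIs each, with ratios of 73.2 (95% exact interval 20.0 to 609) and 106 (29.1 to 881). They were at 18.9 and 13.6 CPM in day 14 replicate 3 and at 2.78 and 7.33 in day 18 replicate 4, and the 8 other B2 cells had 1.18 and 2.36. *Rtp4*, an interferon-induced gene, was at 7.30 and 0.746 CPM in EP1 and 145.2 in EP2, and *Efr3b*, *Fam46a*, *Ly6c1*, *Gm15859* and *Hmgxb3* were at 14.3 to 34.3 CPM in EP2 and at 0 to 2.49 in EP1. In the 8 other B2 cells *Ly6c1* was at 14.97 CPM and *Efr3b* at 9.85.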

How the data were processed

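Modified STRT-seq libraries of single cells were analysed from the table of UMI counts per gene and cell that the authors deposited after their filters on cells and genes. The authors extracted barcodes and UMIs with UMItools, aligned reads to mm10 with STAR 2.7.2b, assigned genes with featureCounts 2.0.0 and named clusters with Seurat. The percent of mitochondrial UMIs per cell was taken from the annotation the authors deposited. Of the cell columns, 1501 were used and 2963 were not. No doublet caller was run.

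Raw counts of 24615 genes were summed per library and class, over libraries with at least 5 cells of the class. Sums were compared with the quasi-likelihood test of edgeR 4.0.16 (TMM, filterByExpr) in R 4.3.3. Calls needed an adjusted p (Benjamini-Hochberg) under 0.05 together with a natural-log fold of 0.5 or more in either direction, after the study's threshold on fold. The procedure was tested on simulated data. Alternatives were DESeq2 1.42.0, its size factors, other filters, minimums of cells and reference cells, a library block and leaving out each library. Nothing states that the libraries come from separate cultures, so p-values measure the spread between libraries, which may be technical.

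The genes named were the study's markers, the 12 called genes in each direction against SSC1-4 (6 against RPG3 and EP2) with the largest fold change, ranges that do not overlap and a mean of at least 10 CPM, and 3 members of each list. Since 0 genes were called against SSC1-4, the first rule was applied to libraries with at least 10 cells, a choice made after seeing the data. Other genes named were chosen after their values were seen. Members and lists were chosen with earlier results of these data known. For RPG1, the 6 furthest genes in each direction, or fewer, were given. Shares of cells use counts thinned to 100000 UMIs with 95% exact intervals, and a count of 0 was taken as at most 3. Gene positions are those of GENCODE for GRCm38.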

Additional observations from a re-analysis of the deposited data

Results flagged for a closer look

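Of 65 measures examined over the 7 SSC1-4 libraries, 13 had 1 library whose gap to its neighbour exceeded 0.568 of the range, the 95% limit of Dixon's test for 7 values. Chance does this in about 1 in 20 groups. The library was day 16 replicate 6 in 10 of the 13. Its 8 SSC1-4 cells had a median of 3460 genes and 2.473% mitochondrial UMIs. *Kif21a* was at 74.42 CPM there. Summed levels in it were 40.81 CPM for the mesendoderm list, 4991 for germ cell identity, 1849 for ERK feedback and immediate early genes, 3023 for p53 targets, 2845 for unfolded protein and amino acid stress, 3856 for cholesterol synthesis and 4566 for metallothionein and redox. Apart from this library, *Esrrb* stood at 18.59 CPM in the 6 SSC1-4 cells of day 18 replicate 4, *Nanog* at 22.85 CPM in day 14 replicate 5 and *Cartpt* at 151.4 CPM in day 18 replicate 2.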

How the results depend on the processing

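The count of genes called between EP1 and SSC1-4 was 0 in the reported fit, 68 with at least 10 cells per library, 49 with DESeq2, 2 without a filter on low counts and 2 with SSC1-4 of both batches. Among alternatives chosen after seeing the data it was 60 without cells under 100000 UMIs, 167 against SSC1 alone and 39 against SSC2 alone. The cause was not tested. Leaving out each library in turn gave 0 to 0 genes, a log2 fold change of 1.293 to 1.931 for *Eomes*, -1.552 to -0.313 for *Esrrb* and -1.442 to 1.397 for *Sox2*, the last reversed without EP1 of day 18 replicate 4. *Esrrb* was at 0.322 against SSC1 alone.

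With the library as a replicate block, in the 2 libraries where both classes occur, 40 genes were called (24 higher and 16 lower), 11 of them among the 68, and 0 with the same libraries and no block. The pairing rests on cells that share a library. Under the block the log2 fold change reversed for *Dmrt1* (0.008), *Pou5f1* (0.781), *Tdgf1* (0.319), *Pfkl* (0.28), *Fdps* (-0.074) and *Gins2* (0), and in the same libraries without it for *Dmrt1* (0.03), *Pfkl* (0.297), *Fdps* (-0.062), *Dnmt3l* (0.245) and *Wt1* (0.082).

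With a minimum of 1 cell it reversed for *Il1r2* (0.208), *Wfdc15a* (1.241), *Tdgf1* (0.513), *Id4* (-0.054), *Hk1* (0.167), *Btg2* (0.232), *Hspb1* (-0.687), *Idi1* (-0.493), *Gins2* (0.557) and *Mcm7* (0.261). *Hspb1* also reversed at 10 cells (-0.051), without shallow cells (-0.048) and against SSC2 alone (-0.233), where *Dppa2* (-0.034), *Rhox9* (1.135), *Plk1* (-0.023) and *Tpx2* (-0.029) did too. *Fos* was at 0.115 against SSC1 alone. On leaving out 1 library, *Dmrt1* ranged from -0.334 to 0.051 and *Dnmt3l* from -3.264 to 0.25, and *Dmrt1* was at 0.048 with both batches.

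Against RPG3 the count of 2395 became 1097 with 1 cell, 3946 with 10 cells and 901 at an adjusted p below 0.01 and a natural-log fold of 1, and 885 to 3946 on leaving out 1 library. Against RPG1 the count of 28 became 67 with DESeq2, 72 without a filter, 0 with 1 cell, 15 under the stricter rule and 37 to 138 on leaving out 1 library. There *Zbtb16* (0.847) and *Dppa2* (0.92) reversed with 1 cell, and *Dppa2* ranged from -0.459 to 0.018 on leaving out 1 library. Against EP2 the count of 2920 became 858 with 1 cell, 633 at a natural-log fold of 1 and 2888 to 3711 on leaving out 1 EP1 library. With 1 library left in a class, it is assumed to vary like the other class. An edgeR fit of 2 EP1 against 1 EP2 library, added after seeing the data, called 636 genes (405 with DESeq2, 136 under the stricter rule), but it measures no spread in EP2 and no statement rests on it. With 1 cell, which gives 2 EP2 libraries, 3 were called, and in the 2 libraries with both classes 0 with the replicate block and 2 without it.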
